A study of Rattus norvegicus with 4 samples.

Results

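miR-26a and miR-26b are a pair of small RNAs that share one seed, the stretch of bases by which a miRNA pairs with its target mRNAs. They were described here in exosomes of rat adipose tissue and of cultured rat adipose stem cells. The members were the reads that the authors' tag files place on the hairpins rno-mir-26a and rno-mir-26b. These are 2 of 262 named precursors, 81 of 5198 tag rows and 1789 of 242362 named counts, where a tag is 1 distinct read sequence and its count is the number of its reads. Exo-AT denotes exosomes shed into α-MEM with penicillin and streptomycin over 3 days by minced adipose explants of Sprague-Dawley (SD) rats aged 4 weeks, stirred at 100 r/min in 75 mL of culture medium. Exo-ADSCs denotes exosomes that adipose stem cells at passage 3 released over 3 days into the same medium without serum. No genotype, transgene or drug treatment is labelled in either group, and the labels do not say how many animals or cultures stand behind a library. Size selection kept small RNAs of roughly 15 to 35 nt, and sequencing ran for 36 cycles.

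The 2 groups had 2 libraries each, and 3 of the 4 libraries had tag counts: Exo-ADSCs replicate 2, Exo-AT replicate 1 and Exo-AT replicate 2. They held 715114, 15200 and 181049 counts assigned to hairpins in that order, of which 97204, 9134 and 136024 fell on named miRNAs and the rest on hairpins that the authors predicted. Exo-AT replicate 1 was thus the shallowest library by far. Predicted hairpins took 86.4% of the counts in Exo-ADSCs replicate 2 against 39.9% and 24.9% in the Exo-AT libraries. Named miRNA reads were also shorter in Exo-ADSCs replicate 2, with a mean of 19.8 nt against 20.8 and 21.2 nt. Both Exo-AT tag files carry the same sample name inside, so p-values measure the spread between these samples only, which may be technical. In the fits that spread was largely pooled over all tested miRNAs and is not that of miR-26 alone. The replicate numbers of the Exo-AT libraries also go against the authors' own table of raised miRNAs: its column for Exo-AT replicate 1 followed the tag file of Exo-AT replicate 2 to within 5% of one scaling factor for 38 of 45 miRNAs, and that of Exo-AT replicate 1 for 6 of 45. Libraries are named here by the label of the sample that each tag file belongs to, and both files are Exo-AT under either numbering. No tag with fewer than 2 reads is listed in any of the 3 files, so a value of 0 below means that no listed tag had the form, and no limit is given for it.

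As background, the miR-26 genes lie within genes of small phosphatases that act on the tail of RNA polymerase II. The miR-26 family represses the Polycomb methyltransferase EZH2 and is generally regarded as a brake on cell growth. In fat, miR-26 is known to favour the formation of adipocytes and of energy-burning fat cells, in part by repressing the protease ADAM17. A miRNA hairpin can give a product from each arm, named 5p and 3p, and usually one of them dominates. Reads of one miRNA also differ at their ends: a shifted 5′ end moves the seed, and enzymes can add uridines to the 3′ end, as is known for miR-26.

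The mature sequences below, from RefSeq (GRCr8), are shown because the 5p products share their seed, bases 2 to 8, which is in capitals:
miR-26a-5p: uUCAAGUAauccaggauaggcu
miR-26b-5p: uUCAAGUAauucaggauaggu
The seed UCAAGUA occurred at bases 2 to 8 of 2 of the 724 mature rat miRNAs in the RefSeq table, these 2. Over the first 21 bases they were identical at 19 and differed by C11U and C21U, with positions counted from the 5′ end and the miR-26a base first. These differences lie outside the seed, so most reads could be told apart: 1 tag of 9 reads, in Exo-AT replicate 2, was placed on both hairpins.

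The hairpins are shown with both mature arms in capitals, because all reads came from the first arm of each:
Mir26a: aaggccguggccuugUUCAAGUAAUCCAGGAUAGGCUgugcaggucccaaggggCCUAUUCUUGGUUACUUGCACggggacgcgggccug
Mir26b: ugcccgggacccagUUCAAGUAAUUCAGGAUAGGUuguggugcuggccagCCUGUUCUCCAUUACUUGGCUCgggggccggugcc
Mir26a is a hairpin of 90 nt at chr8:127633048-127633137 on the plus strand of GRCr8, within the span of Ctdspl, a phosphatase gene on the same strand. Mir26b is 85 nt at chr9:83425709-83425793, also on the plus strand, within the span of Ctdsp1. The submitters' processing notes name the build rn6. The coordinates here are those of the GRCr8 hairpins, which are identical in sequence to those in the tag files, and exons and introns were not analysed here.

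The central comparison asked whether exosomes of the tissue and of its stem cells carry different amounts of the miR-26 products. miR-26a-5p had 88 counts in the stem cell library, against 83 in Exo-AT replicate 1 and 1297 in replicate 2. As CPM, the count per 1000000 named miRNA counts of its library, these were 905 (Wilson 95% interval 735 to 1115), 9087 (7337 to 11250) and 9535 (9032 to 10066) CPM, where the intervals cover counting error only. Both Exo-AT libraries were thus high and near each other, the stem cell library was low, and the groups did not overlap on this scale. Among named miRNAs, miR-26a-5p ranked 47th by count in the stem cell library, and 15th and 14th in the tissue libraries.

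After TMM scaling, which sets the libraries to a common level through miRNAs that change little, miR-26a-5p was at 1371 CPM in Exo-ADSCs and at 7691 ± 1599 CPM in Exo-AT (SD, n = 2; 6561 and 8822 CPM). The log2 fold change of Exo-AT over Exo-ADSCs was 2.50 (SE 0.39, 95% interval 1.74 to 3.26), and the adjusted p was 1.21e-08 in edgeR's quasi-likelihood test, adjusted by Benjamini-Hochberg over 183 named miRNAs. miR-26a-5p was thus called higher in Exo-AT, in 2 of 2 libraries. In this fit 35 of the 183 miRNAs (19.1%) were called higher in Exo-AT and 35 (19.1%) lower, and miR-26a-5p ranked 49th by log2 fold change. The groups did not overlap in TMM-scaled CPM in 77.0% of the 183 miRNAs, and both Exo-AT libraries were above the Exo-ADSCs library in 39.3%. Further, the median log2 fold change over all of them was 0.37, so miR-26a-5p lay 2.12 above that median. With total named counts as scaling 46 were called higher (25.1%) and 19 lower (10.4%). DESeq2 size factors gave 23 (12.6%) and 30 (16.4%), and DESeq2's Wald test gave 22 (12.0%) and 21 (11.5%). The call was lost when predicted hairpins entered the table, at a log2 fold change of 2.52 and an adjusted p of 0.535, where edgeR called 0 of 401 features and 25 had an unadjusted p under 0.05. The value fell to 1.59 with tags of 20 to 25 nt (adjusted p 0.0242, in a fit that called 23.1% of 130 miRNAs higher and 22.3% lower) and rose to 3.36 with total named counts and to 5.69 with all assigned counts as library size, both also called.

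miR-26b-5p had 78 counts in the stem cell library, against 13 in Exo-AT replicate 1 and 230 in replicate 2. These were 802 (643 to 1001), 1423 (832 to 2434) and 1691 (1486 to 1924) CPM of named counts. It ranked 49th, 53rd and 51st among named miRNAs, a nearly constant place. After TMM scaling miR-26b-5p was at 1216 CPM in Exo-ADSCs, between the 1028 and 1564 CPM of the Exo-AT libraries (1296 ± 380, SD, n = 2), so the groups overlapped. The log2 fold change was 0.14 (SE 0.56, 95% interval -0.95 to 1.24), with an adjusted p of 0.862 in edgeR's quasi-likelihood test, and no call was made. That interval does not show equal levels. The sign depended on scaling, tag choice and library: the log2 fold change was 0.98 with total named counts, -0.15 with DESeq2 size factors, -0.71 with tags of 20 to 25 nt and -0.20 without Exo-AT replicate 2. With all assigned counts as library size it was 3.33 and called, in a fit that called 107 of 169 miRNAs (63.3%) higher and 5 (2.96%) lower and had a median of 3.88.

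**Figure D1:**
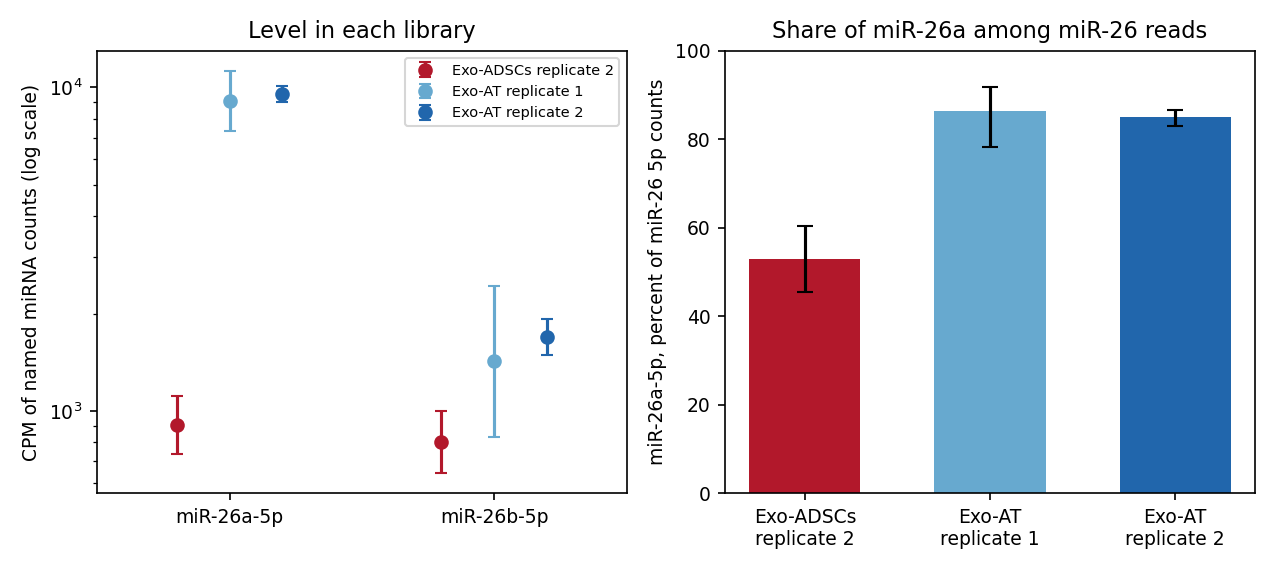
Left, CPM of named miRNA counts (log scale) of miR-26a-5p and miR-26b-5p in each library, with Wilson 95% intervals for counting error as bars. Right, the percent of miR-26 5p counts that are miR-26a-5p in each library, with the same kind of interval; the stem cell library stands at 53.0% and the Exo-AT libraries at 86.5% and 84.9%.

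The proportion of the paralogs within a library does not depend on scaling between libraries. miR-26a made up 53.0% of the miR-26 5p counts in the stem cell library (88 of 166, Wilson 95% interval 45.4 to 60.5%). The share was 86.5% in Exo-AT replicate 1 (83 of 96, 78.2 to 91.9%) and 84.9% in the other tissue library (1297 of 1527, 83.1 to 86.6%). The paralogs were thus near parity in the stem cell library, with 1.13 miR-26a reads per miR-26b read, and miR-26a prevailed in both tissue libraries, with 6.38 and 5.64. The log2 ratio was 0.17 in the stem cell library and 2.59 ± 0.13 in Exo-AT (SD, n = 2), a difference of 2.41. The two-sided exact permutation test over the 3 libraries gave p = 0.333, the smallest value that 2 libraries against 1 allow. Counting the most common tag of each miRNA alone, a choice made after seeing the data, the shares were 66.7%, 94.1% and 88.9%.

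The 3p arms had 0 counts in all 3 libraries for both miR-26a-3p and miR-26b-3p, while the 5p arms had 1468 and 321 in total. No test was made for them, and none of the 81 tag rows lay on the 3p side of either hairpin.

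Short reads were a feature of the stem cell library, and the miR-26 products differed from each other in this respect. Reads of miR-26a-5p averaged 21.95 nt in the stem cell library, and 21.61 and 21.68 nt in the tissue libraries. None of its 88 counts in the stem cell library was shorter than 20 nt, against 55.1% of the counts of all other named miRNAs there. In that library miR-26a-5p was 1 of 4 among the 59 miRNAs with at least 50 counts that had no read under 20 nt, where the median share was 24.6%. In the Exo-AT libraries 4.82% and 2.70% of miR-26a-5p counts were under 20 nt, against 19.3% and 15.7% of other named counts. The miR-26b-5p shares were 16.7% in the stem cell library, 38.5% in Exo-AT replicate 1 and 10.4% in replicate 2. The second of these rests on 5 of 13 counts, with a Wilson interval of 17.7 to 64.5%.

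Lengths near the full mature form were then counted. Reads of 21 to 23 nt made up 63.6% of miR-26a-5p in the stem cell library, and 81.9% and 86.7% in the tissue libraries. For miR-26b-5p they made up 62.8%, 46.2% and 80.9%. Other named miRNAs had 24.7%, 71.4% and 75.7% of their counts in this range when pooled. Taken one miRNA at a time, the median share in the stem cell library was 41.7% over the 59 miRNAs with at least 50 counts, and 17 of them had a larger share than miR-26a-5p and 19 than miR-26b-5p. Reads of 22 nt were the most common length of miR-26a-5p in every library, and of miR-26b-5p in all but Exo-AT replicate 1, where 16, 21 and 22 nt had 3 counts each. In the stem cell library miR-26a-5p also had a peak at 20 nt (21.6%, against 10.8% and 9.41% in Exo-AT) and a smaller share at 21 nt (3.41%, against 14.5% and 13.9%). Like its level, the miR-26a-5p share of 21 to 23 nt was thus higher in both Exo-AT libraries. So was that of other named miRNAs pooled, while miR-26b-5p had a lower and a higher share there, at 46.2% and 80.9%. In CPM of the named reads of 20 to 25 nt, miR-26a-5p was at 2026, 10706 and 10984 and miR-26b-5p at 1450, 1084 and 1793 in the same order of libraries. On that scale miR-26a-5p was again high in both Exo-AT libraries, and the miR-26b-5p groups overlapped.

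**Figure D2:**
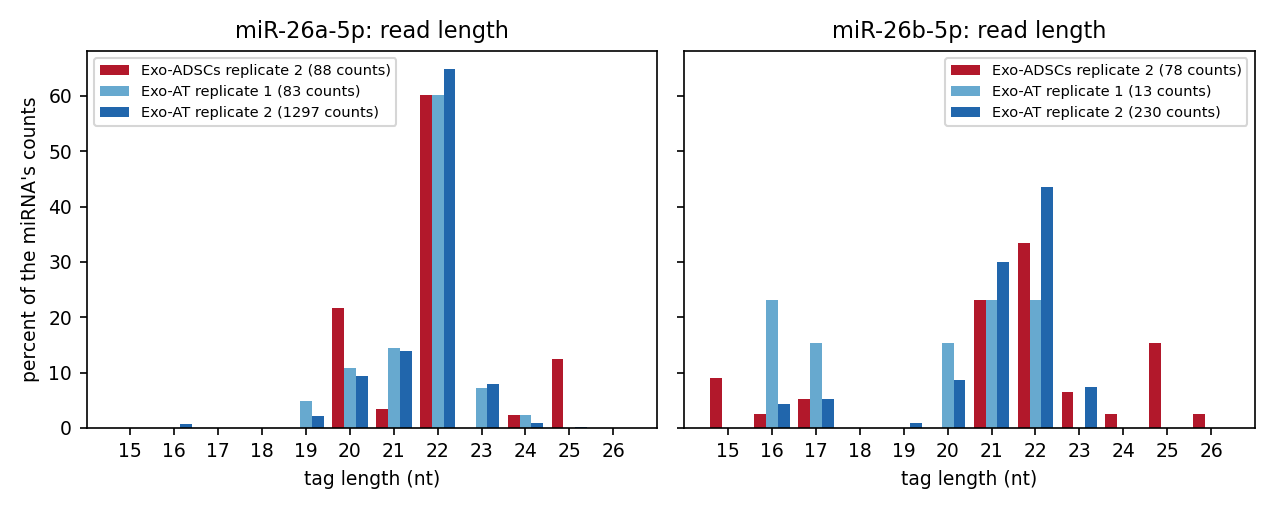
Percent of the counts of miR-26a-5p (left) and miR-26b-5p (right) at each tag length in nt, with 1 bar per library and the count behind it in the key. miR-26a-5p peaks at 22 nt in all 3 libraries, and its 25 nt bar in the stem cell library holds the reads with a longer 5′ end; miR-26b-5p in Exo-AT replicate 1 rests on 13 counts.

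The tags behind these lengths are shown next, as DNA letters from the deposited files, because the most common form was shared by the groups while others appeared in one group alone. Most common tags, seed in capitals:
miR-26a-5p main tag: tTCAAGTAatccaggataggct
miR-26a-5p shorter tag: tTCAAGTAatccaggatagg
miR-26b-5p main tag: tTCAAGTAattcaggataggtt
miR-26b-5p reference tag: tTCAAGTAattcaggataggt
The main tag of miR-26a-5p, which is its mature sequence, had 44 of 88 counts in the stem cell library, 48 of 83 in Exo-AT replicate 1 and 774 of 1297 in replicate 2. The tag 2 nt shorter had 16, 9 and 109 counts. The main tag of miR-26b-5p had 22 of 78, 3 of 13 and 97 of 230 counts. It ends 1 base beyond the RefSeq mature form, a base that matches the hairpin. The tag of the RefSeq form itself had 18 counts in the stem cell library and 49 in Exo-AT replicate 2.

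The 5′ end sets the seed. miR-26a-5p reads began at the RefSeq start in 83.0% of counts in the stem cell library, 96.4% in Exo-AT replicate 1 and 95.1% in replicate 2. For miR-26b-5p the shares were 66.7%, 61.5% and 82.2%. Over the other named miRNAs with a RefSeq start they were 72.4%, 59.9% and 52.2%. miR-26a-5p thus kept its RefSeq start more often than the pooled reads of other miRNAs in each of the 3 libraries. The shared seed stood at bases 2 to 8 in 83.0%, 96.4% and 93.7% of miR-26a-5p counts and in 66.7%, 61.5% and 82.2% of miR-26b-5p counts.

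The shifted starts took different forms. In the stem cell library, 11 of 88 miR-26a-5p counts (12.5%, Wilson 95% interval 7.13 to 21.01%) and 19 of 78 miR-26b-5p counts (24.4%, 16.2 to 34.9%) had at least 3 extra bases before the RefSeq start, and both Exo-AT libraries had 0 of either. These tags are shown because they carry the difference, with the extra bases, which do not match the hairpin as a whole, in capitals:
miR-26a-5p extended tag: CATttcaagtaatccaggataggct
miR-26b-5p first extended tag: ACGttcaagtaattcaggataggtt
miR-26b-5p second extended tag: CATttcaagtaattcaggataggtt
The miR-26a-5p tag held all 11 of its extended counts. For miR-26b-5p, the prefix ACG took 13 counts over 3 tags, CAT 4 and AACG 2. The same prefixes occurred beyond miR-26: among other named miRNAs with a RefSeq start, CAT preceded it in 342 counts over 21 miRNAs in the stem cell library (0.379%) and ACG in 416 counts over 23 miRNAs (0.461%). Neither prefix occurred there in the 7460 and 98107 such counts of the Exo-AT libraries. In Exo-AT, shifted miR-26b-5p reads began 1 nt late in 23.1% and 9.13% of counts and 1 nt early in 15.4% and 8.70%, shifts that had 0 counts in the stem cell library. The shares of Exo-AT replicate 1 rest on 3 and 2 of 13 counts. Of the 20 early counts in replicate 2, 12 were 1 tag of 17 nt. In the stem cell library, 7 of 78 miR-26b-5p counts (8.97%) began 2 nt late, all of them 1 tag of 15 nt with a mismatch.

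A second form of read was found in the stem cell library alone, a substitution at base 18 of the read, A18C, with positions from the 5′ end and the hairpin's base first. The tags are shown with the changed base in capitals:
miR-26a-5p A18C tag: ttcaagtaatccaggatCggct
miR-26b-5p A18C tag: ttcaagtaattcaggatCggtt
Of miR-26a-5p reads that began at the RefSeq start and reached base 18, A18C was in 8 of 73 counts of the stem cell library (10.96%, Wilson 95% interval 5.66 to 20.2%), in 0 of 80 of Exo-AT replicate 1 and in 0 of 1225 of replicate 2. Of such miR-26b-5p reads it was in 4 of 46 (8.70%, 3.43 to 20.3%), 0 of 5 and 0 of 179. Other named miRNAs with A at that base of the read carried the same change in 354 of 3908 counts in the stem cell library (9.06%), over 15 of 60 miRNAs, and in 0 of 453 and 0 of 6958 counts in the Exo-AT libraries. The miR-26 shares were therefore not apart from those of other miRNAs in the same library, and the form moved with the library. No part of it in the level of miR-26 was tested, but with tags free of mismatches the log2 fold change was 2.74 for miR-26a-5p and 0.89 for miR-26b-5p.

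For miR-26, tags with only added uridines were listed in Exo-AT libraries alone. The tags with 1 and 2 added bases, read as T in the files, are shown with these in capitals:
miR-26a-5p with 1 added base: ttcaagtaatccaggataggctT
miR-26a-5p with 2 added bases: ttcaagtaatccaggataggctTT
Uridines alone were added at the 3′ end in 0 of 88 miR-26a-5p counts of the stem cell library, 5 of 83 of Exo-AT replicate 1 (6.02%, Wilson 95% interval 2.60 to 13.3%) and 69 of 1297 of replicate 2 (5.32%, 4.23 to 6.68%). In the tag with 2 added bases, the second T stands at a U of the hairpin, so it could not be told from a templated base. The Exo-AT libraries were close to each other, and the stem cell library had no listed tag of this form. With 88 counts, and tags under 2 reads not listed, this 0 does not show a lower share. Of the 69 counts in replicate 2, 5 came from the tag placed on both hairpins. miR-26b-5p had 0 of 78, 0 of 13 and 5 of 230 (2.17%). The hairpin base after its RefSeq end is itself U, so a single U added there could not be told from a templated base. The shares of miR-26a-5p and miR-26b-5p are thus not measured alike. Other named miRNAs carried ends with only U added in 4.10% of counts in the stem cell library and in 8.66% and 7.19% in Exo-AT.

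**Figure D3:**
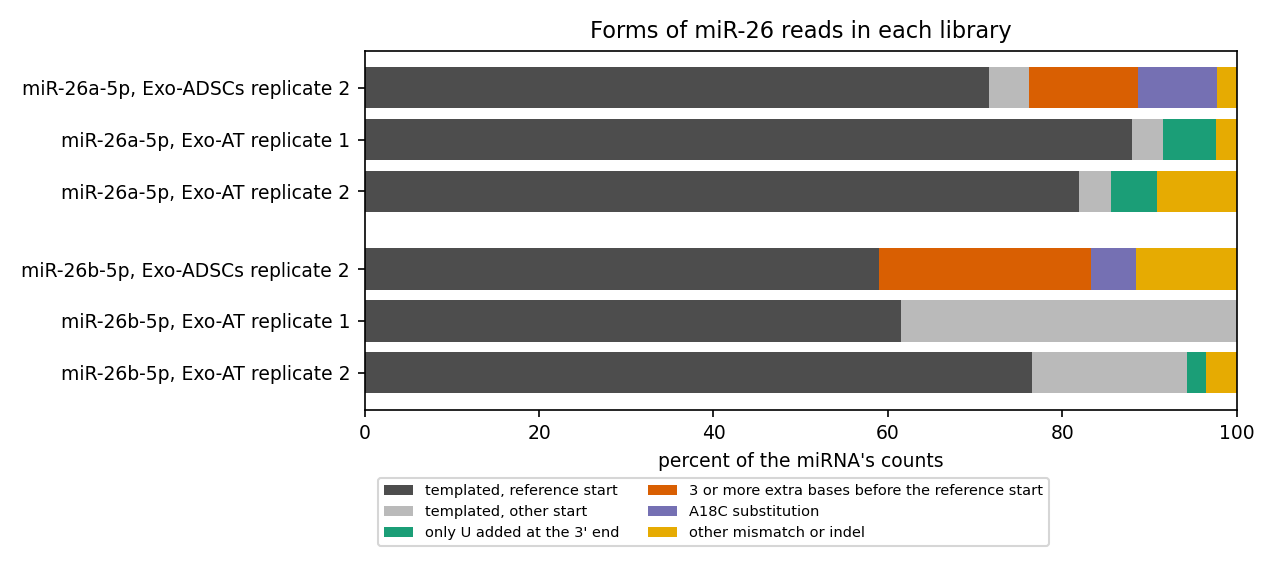
Percent of the counts of each miR-26 product, by library, that fall in each form of read; each bar adds up to 100%. Reads with 3 or more extra 5′ bases and A18C are listed in the stem cell library alone, and reads with only U added in the Exo-AT libraries, for miR-26b-5p in replicate 2.

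Reads with any mismatch or indel made up 23.9% of miR-26a-5p in the stem cell library, and 8.43% and 14.4% in Exo-AT. For miR-26b-5p they made up 41.0%, 0% and 5.65%, and for other named miRNAs 23.1%, 19.7% and 23.01%. miR-26b-5p in the stem cell library thus had the largest share of altered reads of the 6 values for miR-26, and its 13 counts in Exo-AT replicate 1 had none.

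The authors' deposited table of 45 miRNAs raised in Exo-AT gives normalized reads for all 4 libraries and was the only source for Exo-ADSCs replicate 1. In the authors' deposited table miR-26a-5p stands at 7055 and 2994 in the columns for Exo-AT replicates 1 and 2, and at 794 and 122 in those for Exo-ADSCs replicates 1 and 2. Both tissue values were above both stem cell values, with means in the authors' deposited table of 5024.5 and 458 and a fold of 10.8, 24th of the 45. That fold is given as deposited and is not exactly the ratio of these means. The table was selected for that direction, so this is a description. The authors' deposited table does not list miR-26b-5p or either 3p arm among the 45. The Exo-AT columns there followed different kinds of count. The first followed all tags of Exo-AT replicate 2 within 5% of one factor for 38 of 45 miRNAs. The second followed the most common tag of Exo-AT replicate 1 for 27 of 45, and all its tags for 8 of 45. That match is partial, and how the columns were made is not given in the sources used here.

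miR-26 belongs to a wider group of miRNAs reported to act on fat cell formation or heat production. Of 22 hairpins listed as reported to favour fat or thermogenic fat cells, 20 had counts under the listed name. Of their products 19 were tested: 6 were called higher in Exo-AT, 6 lower and 7 neither. Their median log2 fold change was 0.25, against 0.37 for all tested. The list holds the name miR-193, so miR-193a-3p (25, 4 and 11 counts, log2 fold change -1.53, not called) is not in these numbers. All 183 tested had 19.1% called in each direction. The 6 higher products were miR-26a-5p, miR-204-5p and 4 products of the miR-30 family. Of the miR-30 family, which promotes adipocyte formation, these products rose, by log2 fold changes of 2.17 for miR-30a-5p, 2.96 for miR-30d-5p, and 2.56 and 3.48 for the 5p and 3p products of miR-30e, and miR-204-5p was called on 3 stem cell counts against 6 and 80 in Exo-AT. The 6 lower products were miR-103-3p at -2.35, miR-107-3p at -2.18, miR-143-3p at -0.87, miR-182-3p at -1.98, miR-203a-3p at -3.87 and miR-378a-3p at -1.59. miR-103 and miR-107 sit in genes of pantothenate kinases, and miR-378a in a gene for a coactivator of mitochondrial metabolism. Among products not called, miR-26b-5p and miR-30a-3p (1.69, SE 1.06) had the highest levels, followed by miR-196a-5p (0.67), miR-328a-3p (1.75), miR-455-5p (0.25) and miR-30b-5p (-2.13), all with an SE above 1. The seventh product not called was miR-30c-5p (-0.20), named here after its value was seen. Leaving out miR-26, 5 of 17 were higher and 6 lower, so the list split both ways as the table as a whole did.

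Of 16 hairpins reported to oppose fat cells, 15 had counts and 17 products were tested. In Exo-AT 3 were called higher and 2 lower, where 19.1% of all 183 were called in each direction, and 12 were not called. The median log2 fold change was 1.13, against 0.37 for all tested. With the 4 products that had a group at 0 set to the floor of 3 counts over that group, the median was 0.45, against 0.25 for all 183 treated the same way. miR-125b-5p (2.82) and miR-27b-3p (2.02), which restrains adipocyte formation, were higher. miR-150-5p was higher too, with 0 counts in the stem cell library and 2 and 69 in Exo-AT. miR-130a-3p (-3.53), a repressor of PPARγ, and miR-31a-5p (-3.002) were lower. miR-221-3p (-1.05, SE 0.45) and miR-27a-3p (-0.23, SE 0.44) were the most abundant products not called. miR-93-5p (1.13), miR-222-3p (1.22), miR-106b-3p (0.45) and miR-125b-3p (-0.41) were not called either.

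**Figure D4:**
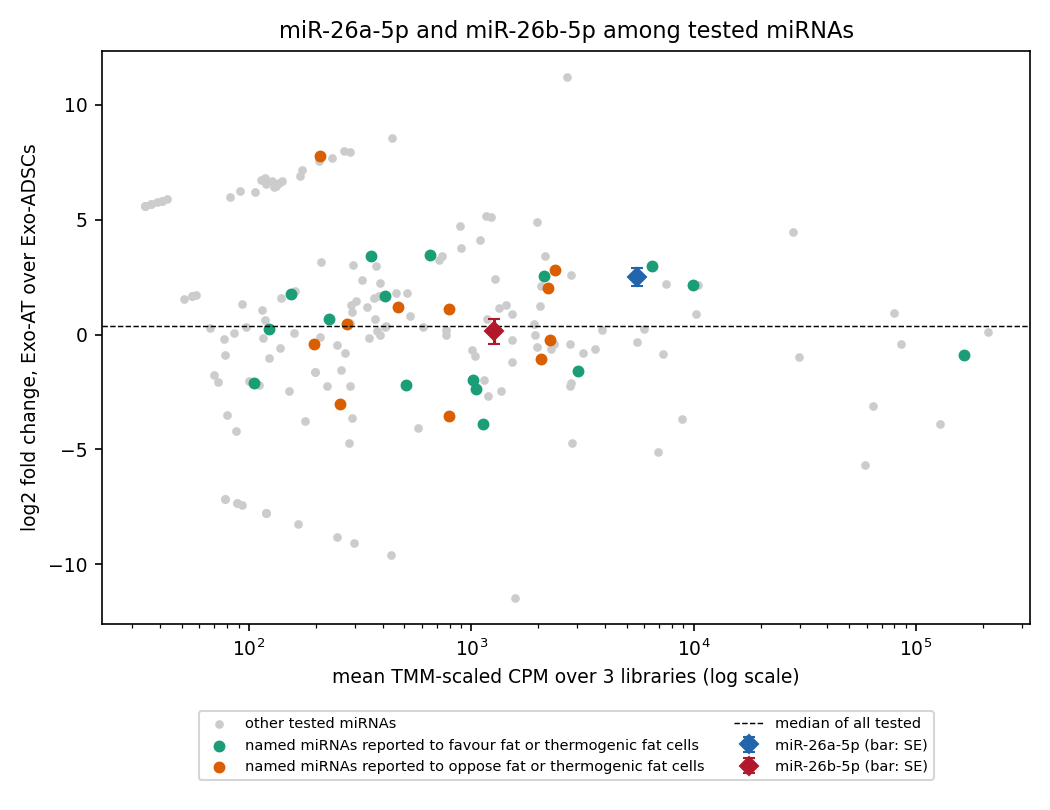
Log2 fold change of Exo-AT over Exo-ADSCs against mean TMM-scaled CPM (log scale) for the 183 tested miRNAs, with the miR-26 products (SE as bars) and the named members of the lists reported to favour or oppose fat cells in colour. miR-26a-5p stands 2.12 above the dashed median of 0.37 and miR-26b-5p just below it; the outer diagonal rows of points hold miRNAs with 0 counts in a group, whose values depend on the prior count.

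Products with patterns most like those of miR-26 were then named, by Euclidean distance between log2 TMM-scaled CPM values centred on their mean over the 3 libraries, among 78 miRNAs with a mean of at least 500 CPM. Nearest to miR-26a-5p were miR-30e-5p (distance 0.15), miR-16-5p (0.18), miR-30a-5p (0.27), miR-127-3p (0.30) and miR-425-5p (0.37), all called higher in Exo-AT. Nearest to miR-26b-5p were miR-10b-5p (0.08), miR-23a-3p (0.14), miR-92a-3p (0.22), miR-28-3p (0.29) and miR-29a-3p (0.31), none of them called. The paralogs were far from each other: miR-26b-5p was 34th in likeness to miR-26a-5p, at a distance of 1.97, and miR-26a-5p was 45th in likeness to miR-26b-5p. With 3 libraries that share their scaling, these distances are a description.

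Some markers of other cell types moved with the group beside miR-26a-5p. The endothelial hairpin miR-126a, with miR-126a-3p as its main product, was at 329 CPM of named counts in Exo-ADSCs replicate 2, and at 3832 and 5102 CPM in Exo-AT. The 3 erythroid hairpins, led by miR-486-5p and miR-451-5p, summed to 33527, 51018 and 166978 CPM, with miR-144 at 0 in Exo-AT replicate 1. The 4 muscle hairpins, led by miR-1b-3p and miR-133a-3p, summed to 206, 1971 and 1470 CPM. Of these, miR-133b was at 0 in all 3 libraries, and miR-133a and miR-206 were at 0 in Exo-AT replicate 1. On this scale all of these sums were higher in both Exo-AT libraries. The erythroid sum was carried by miR-486-5p (3200, 464 and 22521 counts) and the muscle sum in Exo-AT by miR-1b-3p (3, 18 and 177 counts). Other members did not all follow. Fewer counts in Exo-AT were listed for miR-144-3p (4, 0 and 2 counts) and miR-206-3p (12, 0 and 2 counts). Exo-AT replicate 1 had 9134 named counts against 97204 in the stem cell library. A count of 0 there thus does not show a lower level of miRNAs as rare as these. miR-451-5p (55, 2 and 190 counts) was lower in replicate 1 alone, and miR-133a-3p (2, 0 and 21 counts) had such a 0 there. On the TMM scale the endothelial and muscle sums were again higher in both, and the erythroid sum was not, at 50789 CPM in the stem cell library against 36834 and 154497 CPM in Exo-AT.

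The liver marker miR-122-5p was at 226, 657 and 463 CPM, and the 2 neural hairpins, miR-9a-5p before miR-124-3p, at 134, 4598 and 640 CPM. The 5 leukocyte hairpins, led by miR-150-5p and miR-342-3p, summed to 597, 657 and 1338 CPM, and on the TMM scale to 904, 474 and 1238 CPM, where the groups overlapped. miR-223 was at 0 in the stem cell library and in Exo-AT replicate 1. miR-150 and miR-155 were also at 0 in the stem cell library, and miR-342 in Exo-AT replicate 1. The 7 epithelial hairpins, led by miR-203a-3p and miR-200a-3p, summed to 2387, 2299 and 1360 CPM. On the TMM scale the sums were 3616, 1660 and 1258 CPM. The lower sum in Exo-AT was carried there by miR-203a-3p, at 2977, 237 and 190 TMM-scaled CPM. Other members were higher in both Exo-AT libraries on that scale. These were miR-200a-3p (140, 632 and 320 CPM), miR-141-3p (171, 395 and 306 CPM) and miR-205-5p (0, 395 and 313 CPM). Values below the stem cell library in both were listed for miR-200b-3p (140, 0 and 95 CPM) and miR-429-3p (6, 0 and 0 counts). Their 0 in the shallow Exo-AT replicate 1 does not show a lower level. miR-200c and miR-205 were at 0 in the stem cell library, miR-200b, miR-200c and miR-429 in Exo-AT replicate 1, and miR-429 in Exo-AT replicate 2. The 4 mesenchymal hairpins, led by miR-143-3p and miR-199a-3p, were abundant in every library, at 160168, 199146 and 133895 CPM of named counts and at 242630, 143779 and 123887 TMM-scaled CPM, with miR-145 at 0 in Exo-AT replicate 1. The part of these cell types in the miR-26 values was not tested. In exosomes of a whole tissue, more vesicles of a cell type and more miRNA per vesicle cannot be told apart.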

How the data were processed

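Small RNA libraries of exosomes from rat adipose explants (Exo-AT, 2 libraries) and adipose stem cells (Exo-ADSCs, 2) were sequenced. The deposited tag files hold whole-number counts per tag and hairpin, with the reads of a tag on several hairpins divided between them, per the file headers. Novoalign 2.07.11 and the build rn6 are named in the submitters' processing notes; how reads were trimmed and hairpins predicted is not given in the sources used here. The authors' table of raised miRNAs holds normalized reads rounded to whole numbers, a score whose factor is not stated, and a fold change, per the file headers. The deposited file of Exo-ADSCs replicate 1 used here holds no tag counts, so that library entered through the authors' table only.

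Tags were assigned to hairpins by name, copy numbers removed, and to an arm by the tag's midpoint. Counts of named miRNAs were tested with edgeR 4.0.16 (quasi-likelihood, two-sided; TMM; minimum count 10, minimum total 15; R 4.3.3), with Benjamini-Hochberg adjustment over 183 miRNAs, called at 0.05. With 1 counted Exo-ADSCs library the spread comes from the 2 Exo-AT libraries, with 1 residual degree of freedom, and assumes that the lone library varies alike. The fit pools this spread over the 183 miRNAs. The p-values and intervals of a miRNA therefore rest largely on the pooled spread and little on its own. Totals were 9134 to 136024 named counts per library. Wilson 95% intervals were given for shares and, without molecular identifiers on the reads, cover counting error only. Patterns were compared on log2 of CPM plus 1. DESeq2 1.42.0 and limma-voom (limma 3.58.1) were alternatives, beside other scalings, filters and tag choices. Sequences and coordinates are from RefSeq (GRCr8). The members, lists and tests were chosen with earlier results of these data known. Named miRNAs were the 4 miR-26 arms, the 5 nearest patterns of each member, called list members with up to 6 of the most abundant uncalled ones and up to 2 leading products per marker list.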

Additional observations from a re-analysis of the deposited data

How the results depend on the processing

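miR-26a-5p kept its direction in all 13 alternatives, from 1.59 to 5.69 on the log2 scale, and its call in 11 of the 12 settings with a test. It lost the call with predicted hairpins included (2.52, adjusted p 0.535 in edgeR); the cause was not tested. Without one or the other Exo-AT library, which leaves 1 library a group and no test, it ranged from 2.29 to 2.68. miR-26b-5p was not called in 11 of 12 settings (adjusted p 6.61e-08 to 0.986 over the alternatives). It turned negative with DESeq2 size factors (-0.15), in DESeq2's Wald test (-0.17), with tags of 20 to 25 nt (-0.71) and with tags on 1 hairpin (-0.090), and ranged from -0.20 to 0.36 without one Exo-AT library; the cause was not tested. With all assigned counts as library size it was called, at 3.33; in that setting predicted hairpins, which take more of the stem cell library, count towards depth.

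Against 35 higher and 35 lower, calls were 46 and 19 with total named counts, 23 and 30 with DESeq2 size factors, 107 and 5 with all assigned counts as library size, 22 and 21 in DESeq2's Wald test, and 0 and 0 with predicted hairpins, where 25 had an unadjusted p under 0.05 in edgeR, the one tool run on that table.

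The most common tag alone, chosen after seeing the data, moved the miR-26a share to 66.7%, 94.1% and 88.9%. With tags free of mismatches, reads at the RefSeq start in Exo-ADSCs replicate 2 rose to 94.0% for miR-26a-5p and 100% for miR-26b-5p, and reads of 21 to 23 nt to 76.1% and 87.0%; such tags cannot hold the extended or substituted forms. With tags of 20 to 25 nt, 86.9% of miR-26b-5p counts in Exo-AT replicate 2 began at the RefSeq start. The other 61 values stayed within their spread, on their side of the threshold or, for numbers of miRNAs called, near the number of the main fit. No paired analysis was possible because the counted libraries of the groups share only replicate number 2. The 3p arms had no counts and gave no value under any setting. Exo-AT replicate 1, with 13 miR-26b-5p counts, limits what can be said of that product.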
